A study of Mus musculus with 32 samples.

Results

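The comparison described here set the hippocampus of double-mutant (DM) mice against that of Kdm5c-KO mice, and asks what loss of 1 Kmt2a allele adds where Kdm5c is already absent. It rests on 8 of the 32 RNA-seq libraries of the series, 4 DM and 4 Kdm5c-KO, chosen by their labelled genotype and brain region. All animals were adult male F1 hybrids of 129S1/SvImJ Kmt2a+/- fathers and C57BL/6J Kdm5c+/- mothers. DM mice carried both mutations (Kmt2a+/-, Kdm5c-/y), Kdm5c-KO mice the Kdm5c deletion only (Kdm5c-/y), Kmt2a-HET mice the Kmt2a deletion only (Kmt2a+/-), and WT mice neither, with 4 mice of each genotype. Both alleles were germline deletions present in every cell, so both groups compared here lacked Kdm5c in neurons, glia and vessels alike. The amygdala of the same mice was also sequenced.

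KMT2A is a histone methyltransferase that places methyl groups on lysine 4 of histone H3, a mark of active promoters and enhancers, and KDM5C is a demethylase that removes them. Loss of 1 copy of KMT2A in humans underlies Wiedemann-Steiner syndrome, and loss of KDM5C an X-linked intellectual disability. A double mutant of a writer and an eraser of 1 mark asks whether lowering the writer changes what follows from loss of the eraser.

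Total gene counts ranged from 20266928 to 27798976 over the 8 libraries, and between 22054 and 22906 genes were detected with at least 1 count. None of the 5 library measures (total counts, genes detected, share of the top 10 genes, share of spike-in reads, share of mitochondrial transcripts) differed between DM and Kdm5c-KO at the threshold, with two-sided exact permutation p between 0.257 and 0.971, where 4 against 4 libraries allow no p below 0.0286. Kdm5c-KO replicate 1 had the highest mitochondrial share (6.69%), top 10 share (7.07%) and ribosomal protein share (1.38%) of the 16 hippocampal libraries. Kdm5c counted 1145, 1355, 1239 and 1274 normalised reads in Kdm5c-KO and 1343, 1430, 1331 and 1394 in DM, all below the WT mean of 1586 ± 208 (SD, n = 4). Kmt2a counted 2788, 4971, 4523 and 3713 in Kdm5c-KO against 2971, 5854, 4125 and 4969 in DM, so its total was not lower in DM (log2 fold change 0.16, SE 0.242). The deletions remove a few exons of each gene and the tables count whole genes, so these totals do not check the Kmt2a genotype. A normalised count here is a count divided by the DESeq2 size factor of its library.

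Of 29841 genes tested, 2 were called at a DESeq2 adjusted p under 0.1, which is 0.0067% of them, and both were lower in DM: Cmbl and Ndn. Neither was called by edgeR's quasi-likelihood test, which called 0 genes (adjusted p = 0.705 for both Cmbl and Ndn, 1160 genes at an unadjusted p under 0.05), nor by the DESeq2 test with t instead of normal tails, which also called 0 (adjusted p = 1 for both, 811 genes at an unadjusted p under 0.05). On counts simulated without any changed gene, the DESeq2 test as used here made more calls than the 2 found here in every set drawn with the dispersions of these libraries, and edgeR close to none, so both genes are described here as candidates. The count also rose under other choices, to 126 (45 higher, 81 lower) without Kdm5c-KO replicate 2, 36 (17 higher, 19 lower) without DM replicate 1 and 42 (11 higher, 31 lower) with only the compared groups in the fit.

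Cmbl (ENSMUSG00000022235.15, chromosome 15, 31565389 to 31590119, plus strand, mm10) encodes carboxymethylenebutenolidase-like protein, a cytosolic hydrolase. Its normalised counts were 245.4, 149.5, 150.4 and 195 in Kdm5c-KO against 109.1, 94.38, 94.61 and 99.04 in DM, so the groups did not overlap. The fold difference was 1.86 (log2 fold change -0.89, SE 0.182, 95% interval -1.25 to -0.54, DESeq2 adjusted p = 0.027). The DM libraries lay at the level of WT (101.5 ± 10.2, SD, n = 4) and Kmt2a-HET (94.38 ± 15.3, SD, n = 4), and Kdm5c-KO was the group that stood apart. The main Cmbl-201 transcript showed the same order, with 125.2 ± 26.8 in Kdm5c-KO and 65.32 ± 3.73 in DM (SD, n = 4). In the amygdala the log2 fold change was -0.22 (SE 0.241, adjusted p = 1).

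Ndn (ENSMUSG00000033585.5, chromosome 7, 62346569 to 62350262, plus strand, mm10) encodes necdin, a MAGE-family protein expressed from the paternal allele in neurons and a gene of the Prader-Willi region. It counted 6241, 4627, 5631 and 4740 in Kdm5c-KO against 2657, 3436, 2047 and 3941 in DM, again without overlap. The fold difference was 1.76 (log2 fold change -0.81, SE 0.176, 95% interval -1.16 to -0.47, DESeq2 adjusted p = 0.0535). Unlike Cmbl, Ndn was lower in DM than in WT (4586 ± 352, SD, n = 4; log2 fold change -0.60, adjusted p = 0.078), while Kdm5c-KO did not differ from WT at the threshold (log2 fold change 0.21, adjusted p = 0.896). In the amygdala the same mice gave 5610, 9748, 4734 and 11812 in DM against 10879 to 14286 in Kdm5c-KO, with a log2 fold change of -0.63 (SE 0.226) that was not called (adjusted p = 1). The DM mice low in hippocampal Ndn, numbers 1 and 3, were also the low ones in the amygdala.

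**Figure D1:**
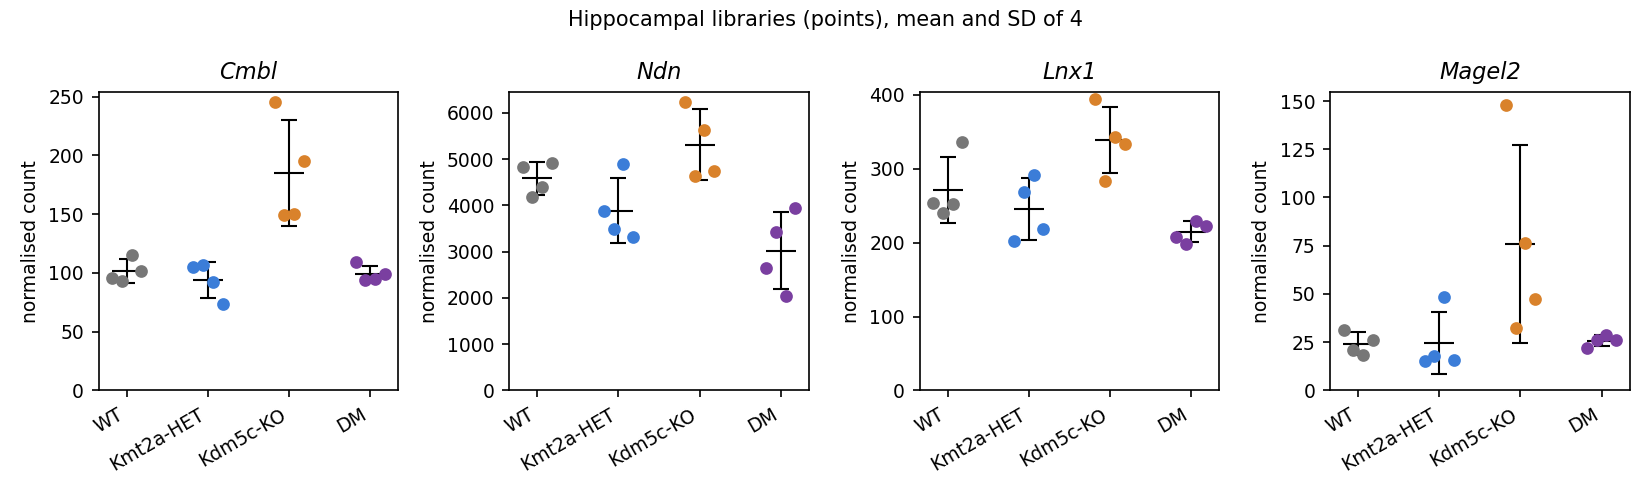
Normalised counts of Cmbl, Ndn, Lnx1 and Magel2 in each of the 16 hippocampal libraries (points), by genotype, with the mean and SD of 4 (bars). The DM mean lies at the WT level for Cmbl and below the means of the other 3 genotypes for Ndn, and Kdm5c-KO replicate 1 is the highest library in each panel.

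Neighbouring genes were then examined. Magel2, another paternally expressed MAGE gene in the same cluster, counted 147.7, 32.43, 76.17 and 47.34 in Kdm5c-KO against 22, 25.91, 28.91 and 26.06 in DM (log2 fold change -1.56, SE 0.446, adjusted p = 0.411), and its log2 fold change was -1.01 without Kdm5c-KO replicate 1. Snhg14, the long host transcript of the cluster's small nucleolar RNAs, had a log2 fold change of 0.61 (SE 0.366, adjusted p = 1). Among 9 measured genes of the imprinted cluster, Ndn itself was the only one called. All 4 estimated genes within 1 Mb of Ndn had values below 0 (median -0.25, from -1.56 to -0.01), with 1 at an unadjusted p under 0.05 and 0 called. None of the 8 within 1 Mb of Cmbl was called, and none of the 104 estimated genes within 5 Mb of Kmt2a or the 44 within 5 Mb of Kdm5c.

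Genes below the threshold were ranked by unadjusted p among those with a mean of at least 50 normalised counts and no overlap between the groups. Of 13187 genes at that level, 4.15% had groups that did not overlap, and over all tested genes 2.02% were higher and 2.51% lower in DM at an unadjusted p under 0.05. Without Kdm5c-KO replicate 1 the counts went from 603 higher and 749 lower to 468 higher and 443 lower. Such a fall was not particular to that library, as the total went from 1352 to 911 without it, to 885 without DM replicate 2, to 955 without Kdm5c-KO replicate 3 and to 964 without DM replicate 4, and rose to 2215 without Kdm5c-KO replicate 2. The first 12 lower genes had log2 fold changes from -1.56 to -0.42. Besides Cmbl, Ndn and Magel2 they were Lnx1 (-0.66), a ubiquitin ligase that acts on Numb, Lhx6 (-0.56), a transcription factor of interneurons from the medial ganglionic eminence, Hpcal1 (-0.77), a neuronal calcium sensor, Tonsl (-0.72), a replication fork repair factor, Nrsn2 (-0.58), a vesicle membrane protein, Gamt (-0.54), an enzyme of creatine synthesis, Tmem35a (-0.49), a chaperone of nicotinic receptors, Rac3 (-0.46) and Rps19bp1 (-0.42). Lnx1 came closest to the threshold, at 394.1, 283.8, 343.2 and 334.2 in Kdm5c-KO against 208.1, 198, 229.5 and 223.1 in DM (adjusted p = 0.14). Gamt and Nrsn2 were also higher in Kdm5c-KO than in WT (log2 fold change 0.90 and 0.88), and their DM means lay between the WT and Kdm5c-KO means. The WT mean was nearer to DM than to Kdm5c-KO for 6 of the 12 lower genes and 7 of the 12 higher genes.

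The first 12 higher genes had log2 fold changes from 0.26 to 1.01 and adjusted p from 0.275 to 0.482, so none was called. They were Ccni (0.31), a cyclin, Acot11 (0.34), an acyl-CoA thioesterase, Dio2 (0.45), the deiodinase that activates thyroid hormone, Emc8 (0.28), a subunit of the ER membrane complex, Klhl15 (0.54), a cullin adaptor, Ptbp3 (0.56), a splicing regulator, Lgr4 (0.27), an R-spondin receptor, Bmt2 (0.31), Gatad1 (0.26), the zinc finger genes Zfp109 (0.71) and Zfp266 (0.49), and Gm48482 (1.01). Ccni read 4763, 4909, 4485 and 4889 in Kdm5c-KO against 5959, 6456, 5103 and 6139 in DM, a small difference against a small spread. In the amygdala, 12 of the 12 lower and 11 of the 12 higher genes had the same sign, of which 1 and 1 had an unadjusted p under 0.05, where 64% of the 12946 genes with a mean of at least 50 counts in both regions had the same sign. Those libraries come from the same mice and are not independent of the ranking.

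**Figure D2:**
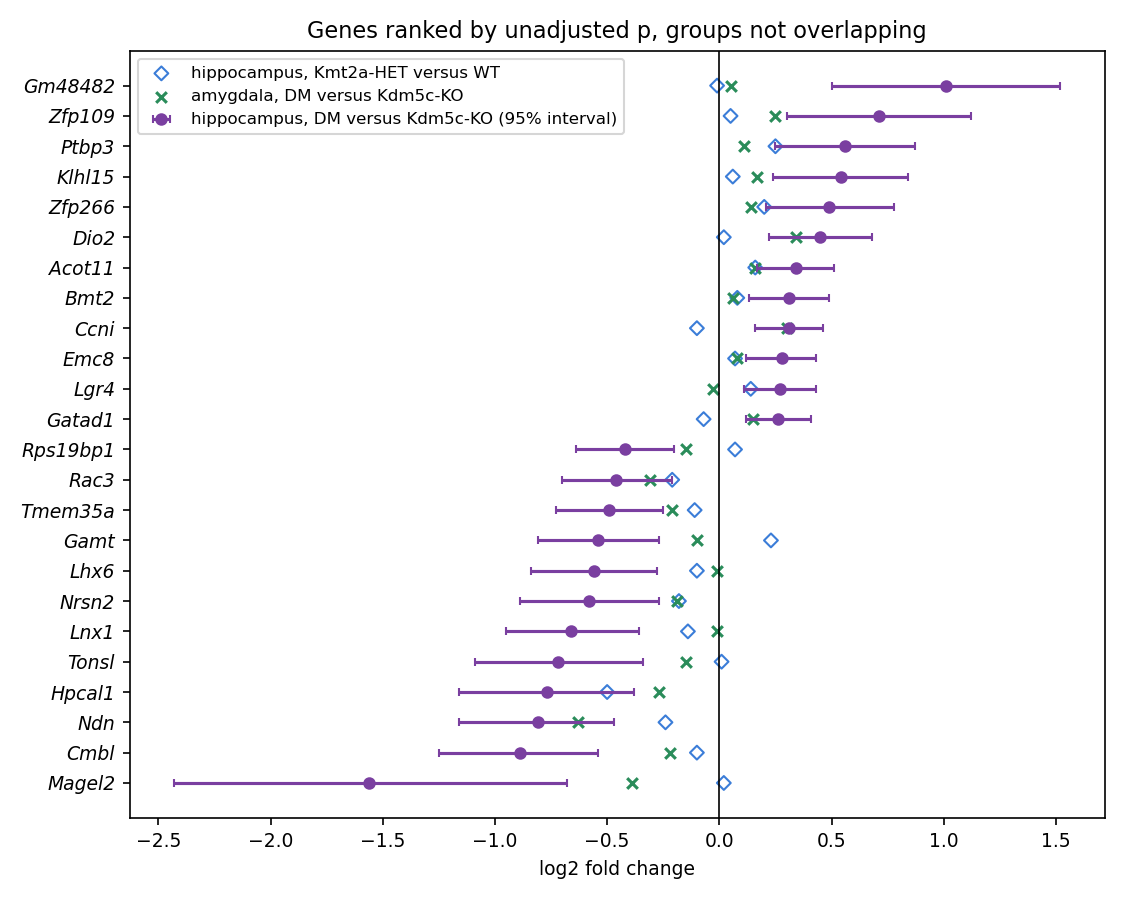
Log2 fold changes of the 12 higher and 12 lower genes in hippocampal DM versus Kdm5c-KO (purple, 95% interval), with Kmt2a-HET versus WT in the hippocampus (blue diamonds) and DM versus Kdm5c-KO in the amygdala (green crosses). Amygdala values have the same sign for 23 of 24 genes, beside 64% of all genes with a mean of at least 50 counts, but are mostly nearer to 0.

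Marker genes of other brain regions showed that the libraries of both groups differed among themselves. The summed normalised count of 10 striatal markers was 13330 in Kdm5c-KO replicate 1 and between 2504 and 3423 in the other 7 libraries. That library also had the highest sum of 11 choroid plexus markers (19162, against 728.8 to 9032 elsewhere). In DM replicates 1 to 4 the choroid plexus sum was 897.7, 7408, 728.8 and 9032. The 9 thalamic markers summed to 5329 in DM replicate 3 and to between 3011 and 3398 in the other 7 libraries. Hypothalamic markers summed to 665.5 and 756.5 in Kdm5c-KO replicates 1 and 4 and to between 65.68 and 104.5 in the other 6, with Agrp, Hcrt and Sim1 under 10 counts in all 8. The marker Pomc alone counted 729 in Kdm5c-KO replicate 4 and 82.51 in replicate 1. Pituitary markers summed to 48.86, 509, 82.1 and 312.4 in Kdm5c-KO against 26.06 to 32.41 in DM. Within the hippocampus, dentate granule cell markers summed to 4940, 13260, 6404 and 6830 in Kdm5c-KO and to between 11425 and 13485 in DM. WT libraries gave 9068 to 13312 and Kmt2a-HET libraries 7615 to 20998. Interneuron markers summed to between 13704 and 18469 in Kdm5c-KO against 10566 and 14842 in DM. For these, WT libraries gave 15084 to 18543 and Kmt2a-HET libraries 11133 to 17550. In tissue libraries, fewer cells of a type and less RNA per cell cannot be told apart, and the part of these markers in the gene differences was not tested.

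**Figure D3:**
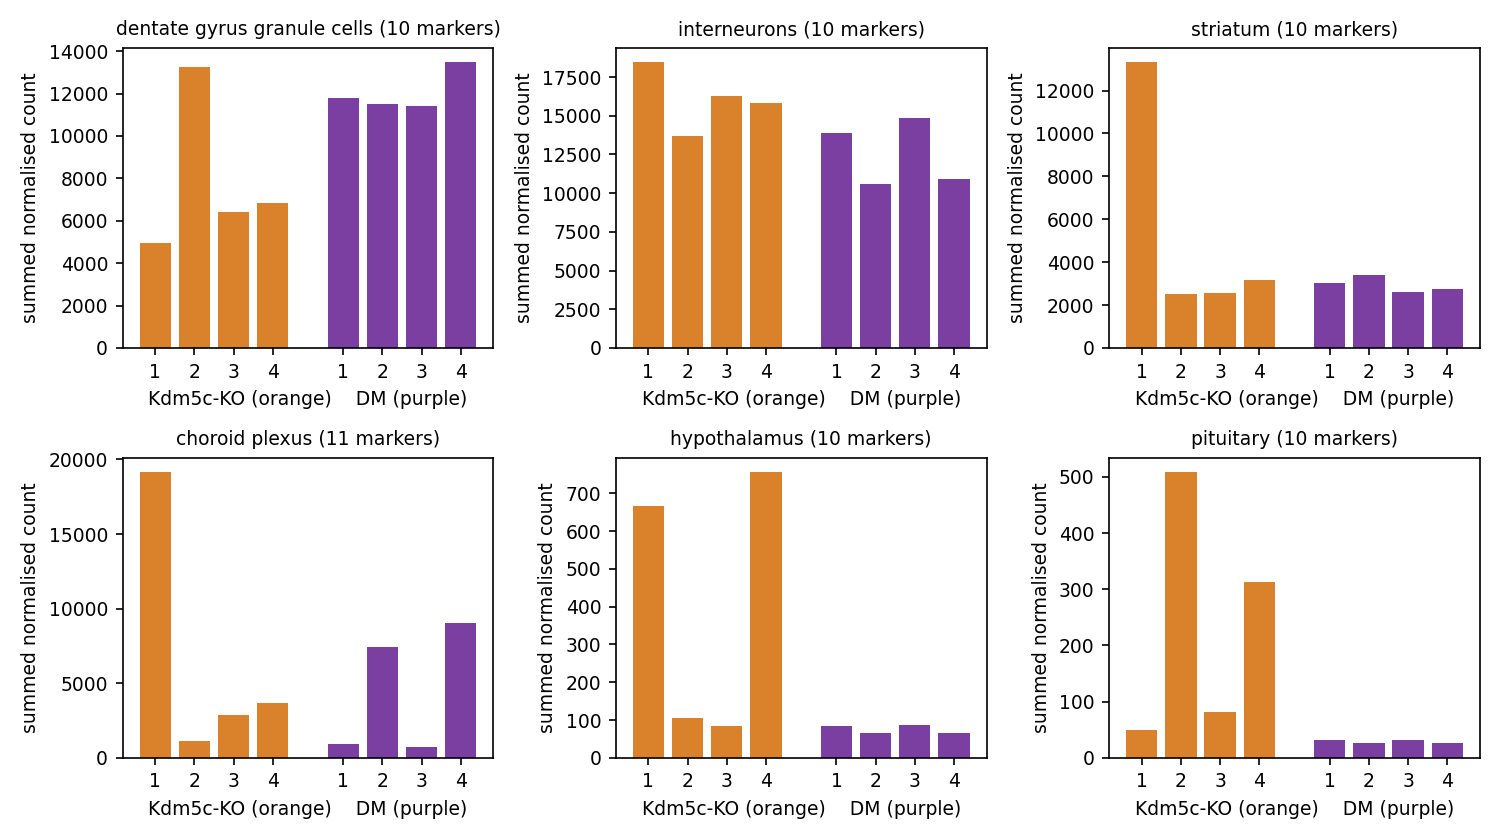
Summed normalised counts of 6 marker lists in the 4 Kdm5c-KO (orange) and 4 DM (purple) hippocampal libraries, numbered by replicate. Striatal and choroid plexus sums are highest in Kdm5c-KO replicate 1, hypothalamic sums in Kdm5c-KO replicates 1 and 4, and pituitary sums in Kdm5c-KO replicates 2 and 4. The hypothalamic sum of Kdm5c-KO replicate 4 is mostly Pomc, at 729.

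Several of the study's 10 neuroactive receptor and ligand genes, singled out on these samples, had their highest counts in Kdm5c-KO replicate 1 or 4. The list is not independent evidence of its direction. Nor is it separate from the marker sums: Adora2a is also a striatal marker, Pomc and Trh hypothalamic markers and Lhb a pituitary marker. Adora2a, an adenosine receptor of striatal neurons, counted 1218 in Kdm5c-KO replicate 1 and 37.59 to 44.5 in the other 3, against 49.05 to 57.37 in DM. Its log2 fold change was -2.64 with all libraries and 0.42 without Kdm5c-KO replicate 1. Trh went from -2.46 to -0.48, Tacr1 from -1.11 to -0.25 and Agt from -0.66 to -0.12 when that library was left out. Pomc, the precursor of melanocortins, counted 729 in Kdm5c-KO replicate 4 and 50.45 to 82.51 in the others, with 36.38 to 60.44 in DM. Adcy2, an adenylyl cyclase, was the member with non-overlapping groups at high counts (2416 to 3552 in Kdm5c-KO, 3680 to 4125 in DM, log2 fold change 0.36, adjusted p = 0.959). P2ry14, a nucleotide-sugar receptor, had a log2 fold change of 0.60 with all libraries and 0.63 without Kdm5c-KO replicate 1, and Lhb, a pituitary hormone subunit, -2.50 and -2.40. None of the 7 members with a test was called.

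Without Kdm5c-KO replicate 1, the same test called 2 genes, Trip4 and Gm5831, named here after their values were seen, and neither Cmbl nor Ndn. Cmbl kept a log2 fold change of -0.73 (SE 0.173, adjusted p = 0.161) and Ndn -0.73 (SE 0.184, adjusted p = 0.38). Trip4, a transcriptional coactivator, counted 737.2, 420.7, 391.7 and 590.8 in Kdm5c-KO against 731.9 to 884 in DM. Gm5831 was at 0 in 6 libraries and counted 149.8 and 121.8 in replicate 1 of each group, so its call carries no interpretable fold. Hpcal1 went from -0.77 to -0.49 and Magel2 from -1.56 to -1.01.

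Interneuron products read lower in DM in most members. The choroid plexus (11 of 11), ependymal (7 of 7) and hypothalamic (7 of 7) marker lists also had values below 0, but without Kdm5c-KO replicate 1 these counts were 0 of 11, 5 of 7 and 6 of 9. Pituitary (8 of 9), striatal (7 of 8) and oligodendrocyte (7 of 8) markers were mostly below 0 too. The striatal count was 5 of 10 without that library. Pituitary sums were highest in Kdm5c-KO replicates 2 (509) and 4 (312.4), which that fit kept. Among 10 interneuron markers, 9 had values below 0 and 4 an unadjusted p under 0.05. Over all 29841 genes, 14378 had values below 0 and 2.51% were lower at such a p. The interneuron list had a median log2 fold change of -0.32 beside 0.00 over all genes, and none was called. Npy, a neuropeptide of interneurons, counted 470.1, 529.7, 470.8 and 469.6 in Kdm5c-KO against 300.4, 304.4, 341.6 and 200.2 in DM (log2 fold change -0.76, SE 0.249, adjusted p = 0.698). Cort, cortistatin, had a log2 fold change of -1.19 (SE 0.327, adjusted p = 0.36), Sst, somatostatin, -0.73 (SE 0.231, adjusted p = 0.668), and Slc32a1, the vesicular GABA transporter, -0.49 (SE 0.175, adjusted p = 0.79). Without Kdm5c-KO replicate 1 the median of the interneuron list was -0.30. All 10 dentate granule cell markers had values above 0 (median 0.62, 5 at an unadjusted p under 0.05), and without that library their median was 0.45 and 2 had such a p. With all libraries, 13762 of the 29841 genes had values above 0 and 2.02% were higher at such a p. Among 9 endothelial markers 4 were higher at an unadjusted p under 0.05 (median 0.27), beside 2.02% of all genes, and none was called. The summed astrocyte markers were 103541, 139841, 139820 and 137178 in DM against 93454 to 113420 in Kdm5c-KO.

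Imprinted genes had a median of -0.14 over 56 genes, with 11 lower and 0 higher at an unadjusted p under 0.05, where 2.51% of all genes were lower and 2.02% higher. Without Kdm5c-KO replicate 1 the median was -0.04 and 6 genes had such a p. Peg10, a paternally expressed gene of retrotransposon origin, counted 623.2, 217.1, 543.1 and 228.2 in Kdm5c-KO against 158.2 to 210.6 in DM (log2 fold change -1.04, adjusted p = 0.569). Immediate early genes had a median of 0.31 over 22 genes with 0 called, and those with the smallest unadjusted p were Inhba (0.79) and Egr3 (0.39). The 26 genes of H3K4 methylation enzymes and cofactors lay between -0.13 and 0.34, and 25 of the 25 with a mean of at least 50 counts had a 95% interval inside 1 log2 unit. Glutamate receptors and scaffolds (30 genes), GABA signalling genes (20), dendritic spine regulators (25) and circadian clock genes (18) had 0 called members, and medians of 0.19, 0.06, 0.05 and 0.16. Germline genes, which Kdm5c normally keeps silent in brain, had a median of 0.08 over 25 genes. Meioc, a meiosis gene, counted 3.257, 1.802, 0.9892 and 2.84 in Kdm5c-KO against 11, 9.253, 8.76 and 22.93 in DM (log2 fold change 2.55, SE 0.701, adjusted p = 0.36), at low counts in every library.

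Genes that differed with Kdm5c loss in the amygdala were then followed in the hippocampus. In the amygdala 144 genes were called between Kdm5c-KO and WT (0.756% of those tested), 138 of them higher in Kdm5c-KO. edgeR called 69 genes, all of them among the 144. Of these 138, 136 had an estimate in the hippocampus, where none was called between DM and Kdm5c-KO and the median log2 fold change was -0.093, with 89 below 0 and 47 above. At an unadjusted p under 0.05, 13 were lower and 0 higher in DM, where 2.51% of all genes were lower. The list was made from other libraries of the same mice. Rps4l, a ribosomal protein gene copy, counted 1522, 1522, 1733 and 1451 in Kdm5c-KO against 1838, 1280, 1483 and 1326 in DM, against a WT mean of 325.2. Tex14, a germ cell bridge gene, counted 77.47 to 102.9 in Kdm5c-KO and 85.12 to 110.4 in DM, against a WT mean of 7.426. Of the other leading genes, BC024139 had a log2 fold change of -0.71 (adjusted p = 1), and Apoc1 (-1.20, and -0.70 without Kdm5c-KO replicate 1), Zar1 (-1.12) and Pnmt (-0.03) had low counts. Of the 136, 127 read above WT in DM, where 46.6% of all genes did. The median over these genes was 0.86 for hippocampal Kdm5c-KO versus WT and 0.62 for DM versus WT. The 2 values share the WT libraries. Over the 142 of all 144 with an estimate, the median in DM versus Kdm5c-KO was -0.086, and 0.001 without Kdm5c-KO replicate 1.

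The effect of Kmt2a loss was then set beside that on a Kdm5c-intact background. Between Kmt2a-HET and WT, 75 genes (0.251%) had an unadjusted p under 0.005, 51 lower and 24 higher in Kmt2a-HET, and edgeR gave 32. Of the 75, 56 (74.7%) had the same direction in DM versus Kdm5c-KO, beside 50.6% of all genes. Among those with a mean of at least 50 counts it was 34 of 47 (72.3%), beside 62.9% of the 13187 genes at that level. The 2 contrasts share no library. The share fell to 40% without Kmt2a-HET replicate 4, and was 59.3% without WT replicate 3. No gene was called for a difference between the 2 contrasts (0% of 29841, 571 at an unadjusted p under 0.05, and 0 by edgeR), so the data do not show that Kmt2a loss acts differently with and without Kdm5c, nor that it acts alike. For Cmbl the difference between the contrasts was -0.79 (SE 0.264, adjusted p = 1) and for Ndn -0.58 (SE 0.248, adjusted p = 1).

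Region was compared in the same way. In the amygdala 1 gene of 30355 (0.00329%) was called between DM and Kdm5c-KO. It was Mfrp, a frizzled-related gene, at 834.5, 24.6, 202.9 and 20.46 in DM and 6.862 to 22.56 in Kdm5c-KO, and it was not called by edgeR, which called 0. In the hippocampus the same gene counted 2028 in Kdm5c-KO replicate 1, the library with the highest choroid plexus sum. No gene was called for a difference of the DM effect between the regions (0% of 32039, 657 at an unadjusted p under 0.05, and 0 by edgeR).

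Of 13187 genes with a mean of at least 50 counts, 12483 (94.7%) had a 95% interval of the difference inside 1 log2 unit in either direction, and 8888 (67.4%) inside 0.5. These intervals use the normal tails of the DESeq2 test and are too narrow where that test calls too often, and with t tails on 12 residual degrees of freedom the shares were 93.5% and 62.1%. The median log2 fold change followed gene length, from -0.102 in the shortest of 4 equal bins of genes (204 to 2960 exon bases) to 0.083 in the longest (7078 to 123179). The 12 lower genes had a median of 1806 exon bases and the 12 higher 5849, beside 4625 over these genes. With each library's trend on length removed, the 4 medians lay between -0.008 and -0.004, Cmbl kept its call (log2 fold change -0.76, adjusted p = 0.0458) and Ndn did not (-0.78, adjusted p = 0.159).

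**Figure D4:**
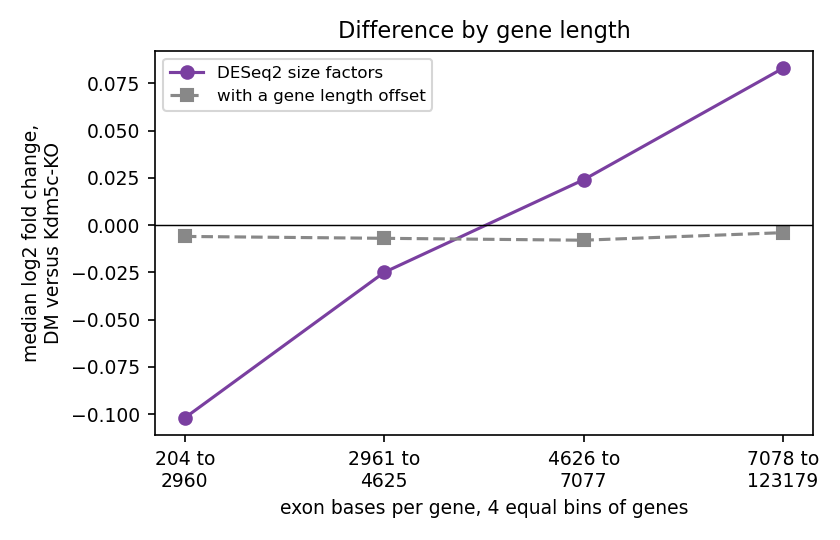
Median log2 fold change of DM versus Kdm5c-KO in 4 equal bins of the genes by exon bases, for the DESeq2 size factors (purple) and with a gene length offset (grey). The purple line goes from -0.102 to 0.083 while the grey line stays within 0.008 of 0.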

How the data were processed

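Poly(A) RNA of hippocampus and amygdala was sequenced in 4 male mice per genotype. The authors aligned reads to mm10 with STAR 2.5.3a, removed duplicates and counted with featureCounts (Subread 1.5.0). The deposited tables call the values expected counts, of which 7.01% are not whole in the hippocampal table, and the estimator is not given in the sources used here. Expected counts were rounded, and 92 ERCC spike-in rows were left out. The main test was DESeq2 1.42.0 (R 4.3.3) on the 16 hippocampal libraries with genotype as the term and an adjusted p under 0.1, after the study's methods. edgeR 4.0.16, other scalings and filters, a block and left-out libraries were alternatives. Tests were checked on simulated data. There DESeq2's normal tails called more unchanged genes than the threshold allows, edgeR kept to it, and t tails were stricter, so edgeR's result stands beside each DESeq2 count that the report leads with. Replicates are separate mice, and no pair of libraries agreed within sampling noise. Positions came from GENCODE M21 (mm10). Members, lists and named genes were chosen with earlier results of these data known. Named genes were both targeted genes, every called gene, the 12 higher and 12 lower with the smallest unadjusted p (mean of at least 50, groups apart), the study's 10 neuroactive genes, the 6 leading amygdala Kdm5c-KO genes, up to 3 members per list, and genes called in the other contrasts. Isoform tables of the amygdala were not used.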

Additional observations from a re-analysis of the deposited data

Results flagged for a closer look

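In 10 of 84 groups of 4 libraries examined for the named genes, 1 library stood far from the other 3. The rule flags about 1 in 20 by chance. The named genes were partly picked on these same values and share libraries, so 10 of 84 cannot be measured against that rate. Of the 10, 6 were Kdm5c-KO replicate 1. In that library Adora2a counted 1218 (median of the other 3, 38.73), Trh 105.3 (8.521), Tacr1 142.2 (35.61), Agt 2120 (762.2), Hpcal1 1225 (665.7) and Tmem35a 1105 (855). The remaining 4 were Pomc at 729 in Kdm5c-KO replicate 4 (58.55), Tmem35a at 531.1 in DM replicate 2 (693.8), Mc3r at 7.402 in DM replicate 2 (0.876) and Zar1 at 9.307 in DM replicate 1 (3.127). The marker sums of the same libraries, which include Adora2a, Trh and Pomc, are given above, and their part in these values was not tested.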

How the results depend on the processing

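Cmbl and Ndn stayed lower in DM under every alternative run, with log2 fold changes from -1.63 to -0.67 and from -1.54 to -0.61, but Cmbl was called in 18 of 27 alternatives with an adjusted p and Ndn in 18 of 28 (adjusted p from 0.00114 to 1 and from 0.000635 to 1). The count of called genes in the hippocampus was 0 with edgeR, 0 with ERCC size factors, 0 with the t distribution (chosen after seeing the data), 1 with the gene length offset (chosen after seeing the data), 1 at an adjusted p under 0.05, 42 with only the compared groups, 34 without the libraries numbered 1 and 128 with a term for them. ERCC size factors moved the median of all genes with a mean of at least 50 counts to -0.736, and that of the amygdala Kdm5c-KO genes to -0.793. Leaving out 1 library gave 1 to 126 genes: 126 without Kdm5c-KO replicate 2, 36 without DM replicate 1, 39, 12 and 4 without Kmt2a-HET replicates 3, 4 and 1, 19 and 4 without WT replicates 2 and 4, and 1 without DM replicate 3 or WT replicate 3.

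Libraries that share a replicate number did not deviate together: their 4 correlations lay between -0.25 and -0.0635, and 0 of 8 libraries correlated best with their own number. The replicate block in DESeq2 gave 402 genes in the hippocampus, of which 253 had a mean under 1 count, and the block in edgeR gave 0. Of the 128 genes above, 79 had a mean under 1 count. With the block, 357 genes were called in the amygdala (0 in edgeR), 68 for the difference between backgrounds and 3 for that between regions, where the mouse was the block. Kmt2a-HET genes then numbered 323 (36 in edgeR), and 45.8% of them (72.2% in edgeR) had the same direction.

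In the amygdala the count was 0 with edgeR, ERCC size factors, the t distribution, only the compared groups or without the libraries numbered 1, 11 with betaPrior, 105 with the term for libraries numbered 1, and 0 to 31 with 1 library left out. The differences between backgrounds and between regions gave 20 and 33 genes with that term, and 0 to 2 each with 1 library left out. Kmt2a-HET genes numbered 32 with edgeR, 9 with ERCC size factors, 11 with the t distribution, 156 with the term, and 31 to 151 with 1 library left out. The share with the same direction was 61.5% with the term and 40% to 88.5% with 1 library left out, and the median of the amygdala Kdm5c-KO genes -0.127 to 0.001. For the difference between backgrounds, fitting only the groups compared is the same fit, and for that between regions WT and Kmt2a-HET libraries were not left out. The cause of these changes was not tested.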
